A study of Mus musculus with 24 samples.

Results

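Genes of the epithelial surface and of epithelial polarity, 10 in number, were followed across 3 stable lines of MIN6, a mouse β cell line that came from an insulinoma: Epcam, Lad1, Rab25, Spint1, Ap1m2, Ildr1, Tmc4, Krt19, Cldn4 and Cldn7. These 10 of the 17696 listed genes were picked by name, and the choice was made because most of them were seen in the miR-146a-5p overexpressing line and hardly at all in the others, so their levels in the different lines are given below as a description with no test. The 24 mRNA-seq libraries fell into 6 groups of 4. Scr cells carried a lentiviral vector with a scrambled sequence, ZIP cells a vector from the same supplier with an antisense sequence to miR-146a-5p, and OE cells a vector of another supplier that expresses miR-146a-5p. Each line was left untreated (Scr, ZIP, OE) or given inflammatory cytokines for 24 h (Scr+Cy, ZIP+Cy, OE+Cy), namely TNFα at 10 ng/ml, IL-1β at 5 ng/ml and IFNγ at 100 ng/ml. All 3 lines were selected with puromycin and grown from picked single clones, and the Scr and ZIP vectors carry copGFP where the OE vector carries Turbo RFP. The clone, the vector and miR-146a-5p therefore cannot be told apart in any comparison of OE with Scr or ZIP.

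Epithelial cells sit in sheets held together by junctions, and they keep an apical and a basolateral surface apart. Tight junctions built from claudins seal the space between cells, adherens junctions and desmosomes anchor the cells to each other, keratins form their intermediate filaments, and dedicated adaptors and Rab proteins send cargo to the right surface. Pancreatic β cells arise from the same epithelium as duct and acinar cells, and Krt19 is widely used to mark duct cells.

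The libraries held between 26657792 and 37168232 assigned reads with a median of 30701023, so that 3 reads were worth 0.0809 to 0.115 CPM (the reads of a gene scaled to the size of its library). β cell markers were present in every line, with the summed level of 12 markers between 49174 and 52791 CPM in OE and between 26107 and 33908 CPM in Scr libraries. In 3 libraries (Scr replicate 1, ZIP replicate 1 and Scr+Cy replicate 1) the 7 fibroblast markers summed to 19.2, 54.8 and 58.7 CPM, against at most 7.95 CPM in all others, and the totals below that rest on these libraries are also given without them. Mature mouse miR-146a-5p, the agent of the OE vector and the target of the ZIP vector, is encoded on the minus strand at chr11:43374435-43374456 (GRCm38.p6) and is shown as RefSeq gives it, with its seed (bases 2 to 8) in capitals. The miRNA was not measured in these mRNA libraries.
miR-146a-5p: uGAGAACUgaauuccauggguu

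In OE cells 9 of the 10 genes had a mean of at least 1 CPM, and in all 16 Scr, Scr+Cy, ZIP and ZIP+Cy libraries every one of the 10 stayed under 1 CPM. Epcam encodes a homophilic adhesion molecule of the epithelial surface (17:87635979-87651127 on GRCm38.p6, plus strand). It stood at 119, 131, 121 and 128 CPM in the 4 OE libraries and at 111, 107, 108 and 109.9 CPM in OE+Cy, whereas no other library held more than 7 Epcam reads. The ratio of the OE to the Scr mean was 978. Ildr1 encodes angulin-2, which sits where 3 epithelial cells meet (16:36693978-36726804, plus strand). Its OE libraries were at 42.6, 43.5, 43.0 and 45.6 CPM and its OE+Cy libraries at 51.9, 54.0, 63.5 and 65.7 CPM, while the other lines reached at most 18 reads, in a ZIP+Cy library. Ildr1 thus had the highest single library outside OE among the 10, although its OE mean was still 741 times the Scr mean and 211 times the ZIP mean.

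Lad1, which encodes the filament-associated protein ladinin 1 (1:135818598-135833341, plus strand), was at 42.2, 50.5, 47.7 and 51.8 CPM in OE and at 45.8, 55.3, 63.6 and 71.1 CPM in OE+Cy. At most 2 Lad1 reads were seen in any library of the other lines, so its OE level was at least 543-fold higher than Scr, with 3 reads per library taken as the floor. Tmc4, a member of the transmembrane channel-like family (7:3665754-3677553, minus strand), stood at 45.9, 33.2, 34.8 and 32.7 CPM in OE and at 61.3, 50.9, 58.3 and 58.2 CPM in OE+Cy. It had 2 to 14 reads in each of the 16 other libraries, the smallest contrast among the genes with OE means above 10 CPM, at 159.5 times the Scr mean. Tmc4 was also the only one of the 10 whose locus overlaps another gene, Leng1, and Leng1 itself was at 7.14 CPM in OE against 7.81 CPM in Scr.

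Sorting and trafficking were represented by Rab25 and Ap1m2. Rab25, an epithelial member of the Rab11 family that recycles cargo to the cell surface (3:88542029-88548279, minus strand), was at 32.1, 30.3, 28.1 and 27.5 CPM in OE and at 34.6, 34.3, 36.2 and 39.4 CPM in OE+Cy, with at most 3 reads elsewhere. Ap1m2 encodes μ1B, the epithelial medium subunit of the AP-1 clathrin adaptor that sorts proteins to the basolateral membrane (9:21294615-21312349, minus strand). Its OE libraries were at 28.0, 24.6, 24.2 and 21.9 CPM and its OE+Cy libraries at 27.3, 23.6, 29.4 and 28.8 CPM, against at most 2 reads in the others. Both genes therefore stood far above the detection limit in all 8 OE libraries and at or under it in the 16 others.

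Spint1 encodes HAI-1, a Kunitz-type inhibitor of the membrane protease matriptase (2:119237360-119249535, plus strand). It was at 32.2, 27.9, 25.9 and 22.3 CPM in OE and at 46.1, 50.8, 49.5 and 44.9 CPM in OE+Cy, and at most 6 reads were seen in a library of another line. Krt19, a type I keratin (11:100140810-100145926, minus strand), was at 12.4, 17.4, 16.2 and 17.4 CPM in OE and at 18, 20.5, 15.9 and 24.2 CPM in OE+Cy. It was the only one of the 10 with 0 reads in all 16 other libraries, which puts its OE level at least 179-fold above Scr.

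The claudins were the lowest of the 10. Cldn7 (11:69964779-69967886, plus strand) was at 1.27, 1.80, 1.96 and 2.62 CPM in OE and at 5.00, 5.15, 6.98 and 9.57 CPM in OE+Cy, with at most 1 read elsewhere. Cldn4 (5:134945123-134946934, minus strand) does not share the pattern of the other 9: the untreated OE libraries held 2, 0, 0 and 5 reads, and only the OE+Cy libraries, with 56, 25, 17 and 14 reads, stood above the rest. A single Cldn4 read was found over the 16 other libraries, so that in untreated cells no fold of OE over Scr can be given that exceeds the floor, and with cytokines Cldn4 was at least 9.66-fold higher in OE+Cy than in Scr+Cy.

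**Figure D1:**
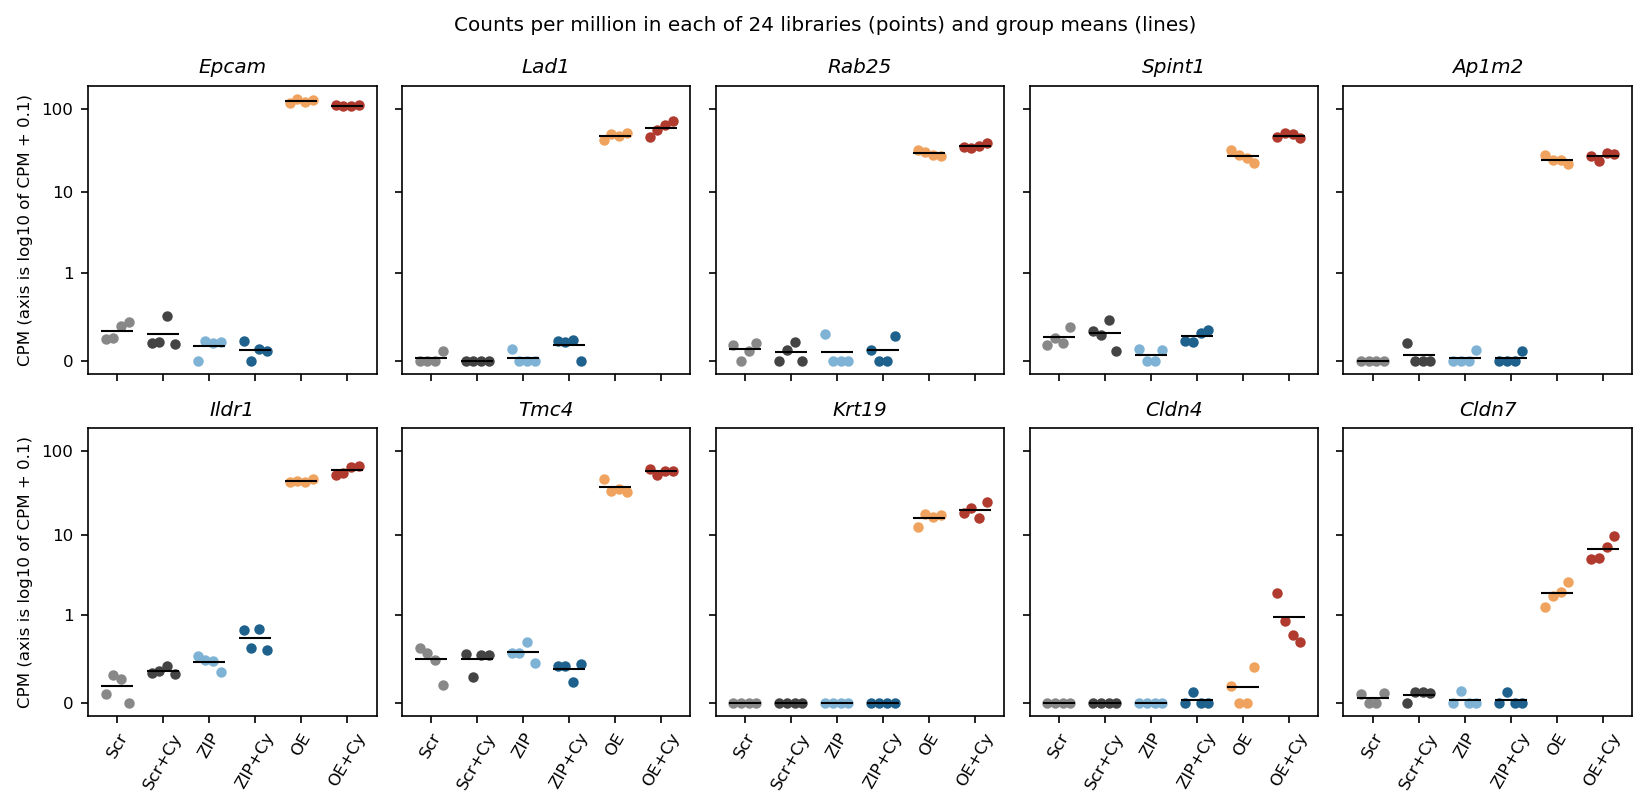
Level of each of the 10 genes in CPM (y axis, log10 of CPM + 0.1) in all libraries of the 6 groups (x axis), with points for libraries and black lines for the means of 4. The OE and OE+Cy points of 9 genes lie between 1.27 and 131 CPM and above every point of the other lines, whereas Cldn4 rises clear of them in OE+Cy alone.

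Set per kilobase of exon, the order of the levels in untreated OE cells was Epcam (56.7 CPM per kb), Rab25 (17.6), Lad1 (14.1), Ildr1 (10.2), Spint1 (9.79), Tmc4 (8.56), Krt19 (8.54), Ap1m2 (7.86), Cldn7 (0.981) and Cldn4 (0.0309). The values from Ildr1 to Ap1m2 lie close together. The spread between OE libraries was narrowest for Ildr1, with a coefficient of variation of 3.09%, and it reached 17.1% for Tmc4, whose replicate 1 lay above the other libraries, 29.1% for Cldn7 and 138% for Cldn4. Among genes with all 16 Scr and ZIP libraries under 1 CPM and with both OE and OE+Cy means of at least 1 CPM, 131 were listed and 9 of the 10 were among them. With the OE minimum raised to 10 CPM there were 21 such genes, of which 8 belonged to the 10, with Cldn7 and Cldn4 left out. The nearest of the 10 to that limit were Krt19 above it at 15.8 CPM and Cldn7 well below it at 1.91 CPM.

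Zeb and Snai proteins, repressors of epithelial genes, bind an E-box that reads CAGGTG on either strand, and these letters were looked for in the RefSeq promoter windows (250 bases before to 50 after a transcript start, GRCm38.p6). Windows were at hand for 9 of the 10 genes, all except Krt19. The E-box letters were in a window of 7 of these 9 genes and in 22.6% of all 27025 genes with a window. Epcam, Rab25, Ap1m2, Cldn4 and the second start of Cldn7 held at least 2 matches, as did 2.88% of all 32851 windows, while Ildr1 and Tmc4 held 1 and Lad1 and Spint1 none. The Ap1m2 window held 4 matches, at -81, -51, -21 and -9 from the start, the first 3 spaced by 30 bases, and 18 of all windows (0.0548%) held as many. The grainyhead core AACNGGTT was found in Rab25 alone among the 9, at -102, and in 2.35% of genes. The Klf core CCNCNCCC was in 8 of the 9 and in 51.9% of genes, and none of the 14 E-box matches shared bases with either of these motifs. The windows of the 9 genes held 52 to 69.7% G and C, against a median of 52.7% over all windows. The shares over all genes were not matched for this content, which bears most on the C-rich Klf core. A match describes the sequence and does not show binding. The 5 windows with at least 2 E-box matches are printed 5′ to 3′ on the strand of the gene, with the matches in capitals: chr9:21312284-21312583 (minus) for Ap1m2, chr17:87635729-87636028 (plus) for Epcam, chr3:88548230-88548529 (minus) for Rab25, chr5:134946885-134947184 (minus) for Cldn4 and chr11:69965171-69965470 (plus) for Cldn7.
Ap1m2: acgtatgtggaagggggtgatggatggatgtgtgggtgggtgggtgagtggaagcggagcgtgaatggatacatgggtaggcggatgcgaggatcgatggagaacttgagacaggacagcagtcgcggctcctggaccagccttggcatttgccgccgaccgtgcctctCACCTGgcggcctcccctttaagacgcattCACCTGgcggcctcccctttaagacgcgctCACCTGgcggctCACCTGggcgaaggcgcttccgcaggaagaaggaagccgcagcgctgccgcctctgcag
Epcam: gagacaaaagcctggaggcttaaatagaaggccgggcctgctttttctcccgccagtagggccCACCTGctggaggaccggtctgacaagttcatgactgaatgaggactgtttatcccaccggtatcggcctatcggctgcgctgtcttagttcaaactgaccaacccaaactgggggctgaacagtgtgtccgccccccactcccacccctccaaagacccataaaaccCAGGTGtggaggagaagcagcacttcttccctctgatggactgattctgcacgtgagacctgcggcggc
Rab25: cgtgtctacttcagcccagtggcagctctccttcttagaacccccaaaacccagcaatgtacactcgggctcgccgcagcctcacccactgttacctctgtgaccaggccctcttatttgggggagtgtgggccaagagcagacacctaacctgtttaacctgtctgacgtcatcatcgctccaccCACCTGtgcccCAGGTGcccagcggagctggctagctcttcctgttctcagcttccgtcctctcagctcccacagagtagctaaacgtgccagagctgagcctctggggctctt
Cldn4: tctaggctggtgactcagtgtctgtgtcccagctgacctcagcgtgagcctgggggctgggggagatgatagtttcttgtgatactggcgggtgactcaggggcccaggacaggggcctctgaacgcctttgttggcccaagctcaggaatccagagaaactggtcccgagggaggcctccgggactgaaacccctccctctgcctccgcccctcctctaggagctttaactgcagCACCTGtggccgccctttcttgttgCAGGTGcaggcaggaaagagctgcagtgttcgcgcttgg
Cldn7: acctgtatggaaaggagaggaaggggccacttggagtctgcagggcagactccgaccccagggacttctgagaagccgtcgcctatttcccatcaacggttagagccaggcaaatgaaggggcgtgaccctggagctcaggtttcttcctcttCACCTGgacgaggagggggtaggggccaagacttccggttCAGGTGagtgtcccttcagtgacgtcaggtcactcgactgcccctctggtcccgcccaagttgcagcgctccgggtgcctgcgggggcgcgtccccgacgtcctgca

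Whether cytokines moved the 10 genes within a line was tested, since the choice of the genes rested on the difference between lines. For Cldn4 that difference lay in the OE+Cy libraries, so its rise with cytokines is not independent of the choice. Its call is included in the counts and the median below, but for Cldn4 it is a description. In OE cells 4 of the 10 were called higher with cytokines and 0 lower, where called means a fold change of at least 1.5 with p under 0.05 in edgeR's quasi-likelihood test. Over all genes 21.0% were called in OE+Cy versus OE and 13.0% were called higher. The median log2 fold change was 0.37 for the 10 genes and 0.02 for all genes. Spint1 rose 1.77-fold (log2 fold change 0.82, SE 0.106, edgeR adjusted p = 7.93e-07) and Tmc4 rose 1.56-fold (0.64, SE 0.115, adjusted p = 6.07e-05). Both were higher in 4 of 4 OE+Cy libraries than in any OE library. Cldn7 rose 3.50-fold (1.81, SE 0.278, adjusted p = 9.29e-06), and its OE+Cy range again lay wholly above its OE range. Cldn4 had the largest estimate (4.04, SE 0.881, adjusted p = 0.0015), but it rests on 7 reads in all OE libraries together, and with DESeq2 in place of edgeR the estimate was 4.09 with an adjusted p of 0.140 (0.000454 to 0.140 over all alternatives).

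The remaining 6 genes did not reach the 1.5-fold limit. Ildr1 was 1.35-fold higher in OE+Cy (log2 fold change 0.43, SE 0.0970, edgeR adjusted p = 7.98e-04), with no overlap between the groups. Lad1 was at 0.30 (SE 0.115, adjusted p = 0.0422) and Rab25 at 0.29 (SE 0.131, adjusted p = 0.0740). Krt19 (0.31, adjusted p = 0.120) and Ap1m2 (0.15, adjusted p = 0.366) overlapped between the groups, as did Lad1. Epcam was the only gene with a negative estimate, -0.19 (SE 0.0761, adjusted p = 0.0442), and all 4 of its OE+Cy libraries were below its lowest OE library. Groups did not overlap for 7 of the 10, as for 40.2% of all genes. An edgeR adjusted p under 0.05, whatever the fold, was reached by 7 of the 10 and 44.6% of all genes. With the replicate number as a block Rab25 also passed (adjusted p = 0.0415), which made 8 of the 10 against 48.4% of all genes.

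**Figure D2:**
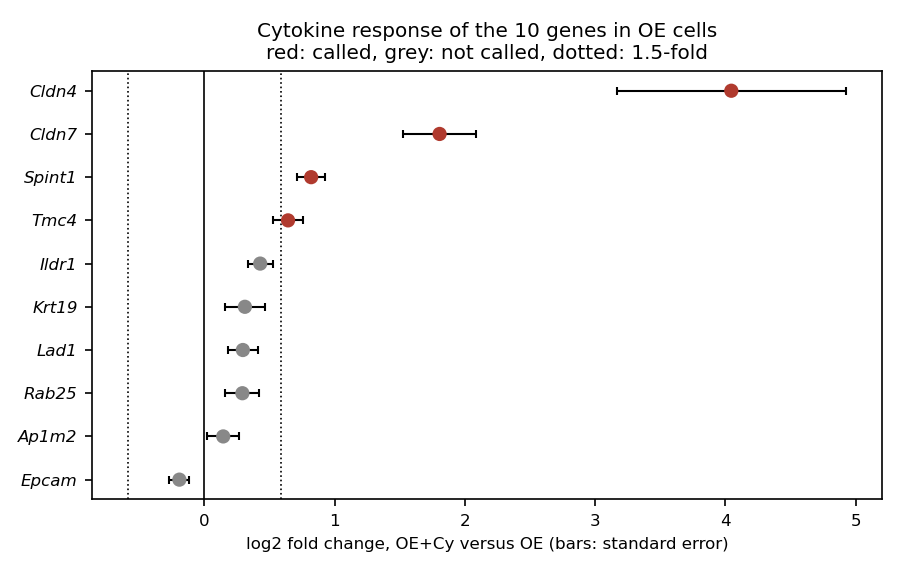
Log2 fold change of OE+Cy versus OE (x axis) for the 10 genes (y axis), n = 4 libraries a group, with standard errors as bars, called genes in red and dotted lines at 1.5-fold. Cldn4, Cldn7, Spint1 and Tmc4 lie beyond the limit at 4.04, 1.81, 0.82 and 0.64, and Epcam alone lies left of 0. The rise of Cldn4 is not independent of how the genes were chosen.

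In Scr cells 6 of the 10 genes had at most 3 reads in every library with and without cytokines, so that a response was not detectable at this depth. Among the other 4, Ildr1 was called higher, from 1, 4, 3 and 0 reads to 4, 4, 5 and 4 reads (log2 fold change 1.17, unadjusted p = 0.0413, edgeR adjusted p = 0.150), where 10.6% of all genes were called. That call was lost with the replicate number as a block (edgeR adjusted p = 0.157) and without the 3 libraries with fibroblast markers (0.97, adjusted p = 0.365), and also when Scr replicate 1 or 4 or Scr+Cy replicate 1, 2 or 3 was left out (0.0701 to 0.394 over all alternatives). In ZIP cells 7 of the 10 were at the limit in both groups and 12.5% of all genes were called. Ildr1 went from 7, 6, 7 and 4 reads to 18, 10, 17 and 10 reads (1.21, SE 0.327, edgeR adjusted p = 0.00738). With only the groups compared its edgeR adjusted p was 0.0586. Spint1 was called higher on 0 to 4 reads a library (2.24, adjusted p = 0.0378). It stayed called with DESeq2 (adjusted p = 0.0708), but that value and others passed 0.05. In edgeR the adjusted p was 0.0922 with only the groups compared, 0.115 without ZIP replicate 3 and 0.0409 without ZIP replicate 1. Tmc4 was called lower, from 8, 8, 14 and 6 reads to 5, 5, 2 and 6 reads (-0.96, unadjusted p = 0.0412, adjusted p = 0.118). The Tmc4 call in ZIP was lost without the 3 libraries (edgeR adjusted p = 0.163) and when any of replicates 1 to 3 of ZIP or of ZIP+Cy was left out (0.0716 to 0.320 over all alternatives). The response of OE cells differed from that of Scr cells, by the interaction term at an adjusted p under 0.05, in 20.0% of all genes and in 0 of the 10, of which 6 were at the limit in Scr. For the 4 others the interaction was -0.74 (SE 0.541) for Ildr1, 0.65 (SE 0.429) for Tmc4, 0.48 (SE 0.564) for Spint1 and 0.05 (SE 0.407) for Epcam.

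Close relatives of most of the 10 genes were compared per kilobase of exon, and some of these relatives serve the same task in more cell types. Ap1m1, the ubiquitous counterpart of Ap1m2, was expressed in every line and was lower in OE, at 19.3 CPM per kb against 31.7 in Scr (log2 fold change -0.71, edgeR adjusted p = 2.33e-11), and Ap1m2 reached 7.86 in OE. The Ap1m1 mean was also lower in ZIP than in Scr, at 23.0 CPM per kb, so this was not particular to OE. With cytokines Ap1m1 was at 23.7 in OE+Cy, 23.5 in ZIP+Cy and 32.3 in Scr+Cy. Rab11a (33.3 in OE, 30.3 in Scr) and Rab11b (15.4 and 14.5) were not called, with Rab25 lying between them at 17.6 in OE. Spint2, the second Kunitz-type inhibitor HAI-2, rose with OE from 5.11 to 23.1 CPM per kb (2.18, adjusted p = 1.78e-15), above Spint1 at 9.79. Their protease St14 (matriptase) had a mean of 0.058 CPM in Scr, 0.876 CPM in OE and 9.02 CPM in OE+Cy, and it rose with cytokines in OE cells (log2 fold change 3.35, edgeR adjusted p = 4.22e-10), the comparison in which Spint1 rose. The St14 mean was also higher with cytokines in the other lines, on at most 11 reads a library. It was 0.249 CPM in Scr+Cy, and 0.109 CPM in ZIP+Cy against 0.041 CPM in ZIP.

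Lsr and Ildr2, the other angulins, were both expressed in Scr and both higher in OE. Lsr went from 27.1 to 56.8 CPM per kb (log2 fold change 1.07, edgeR adjusted p = 3.89e-11) and Ildr2 from 4.22 to 61.9 (3.87, adjusted p = 1.78e-11). Ildr2 fell with cytokines in OE cells to 22.5 CPM per kb (-1.46, adjusted p = 2.93e-05), the opposite direction to the estimate for Ildr1. The Ildr2 mean was lower with cytokines in the other lines too. It was 2.28 CPM per kb in Scr+Cy, and 0.134 in ZIP+Cy against 0.382 in ZIP. Krt8 and Krt18, the keratin pair of simple epithelia, were also higher in OE: Krt8 rose from 29.1 to 72.0 CPM per kb (1.31) and Krt18 from 0.268 to 44.2 (7.34, adjusted p = 3.79e-19). Krt19 reached 8.54 CPM per kb, below both. Cldn3 was 5.77 CPM per kb in OE against 0.139 in Scr (5.34, adjusted p = 8.31e-13), well above Cldn4 and Cldn7. Tmc5, a relative of Tmc4, was at most 2 reads a library in Scr and OE and rose with cytokines in every line, to 0.292 CPM per kb in OE+Cy (5.64, adjusted p = 1.57e-06 against OE), 0.0927 in Scr+Cy (4.48, adjusted p = 3.55e-04) and 0.0841 in ZIP+Cy (3.68, adjusted p = 0.00132).

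**Figure D3:**
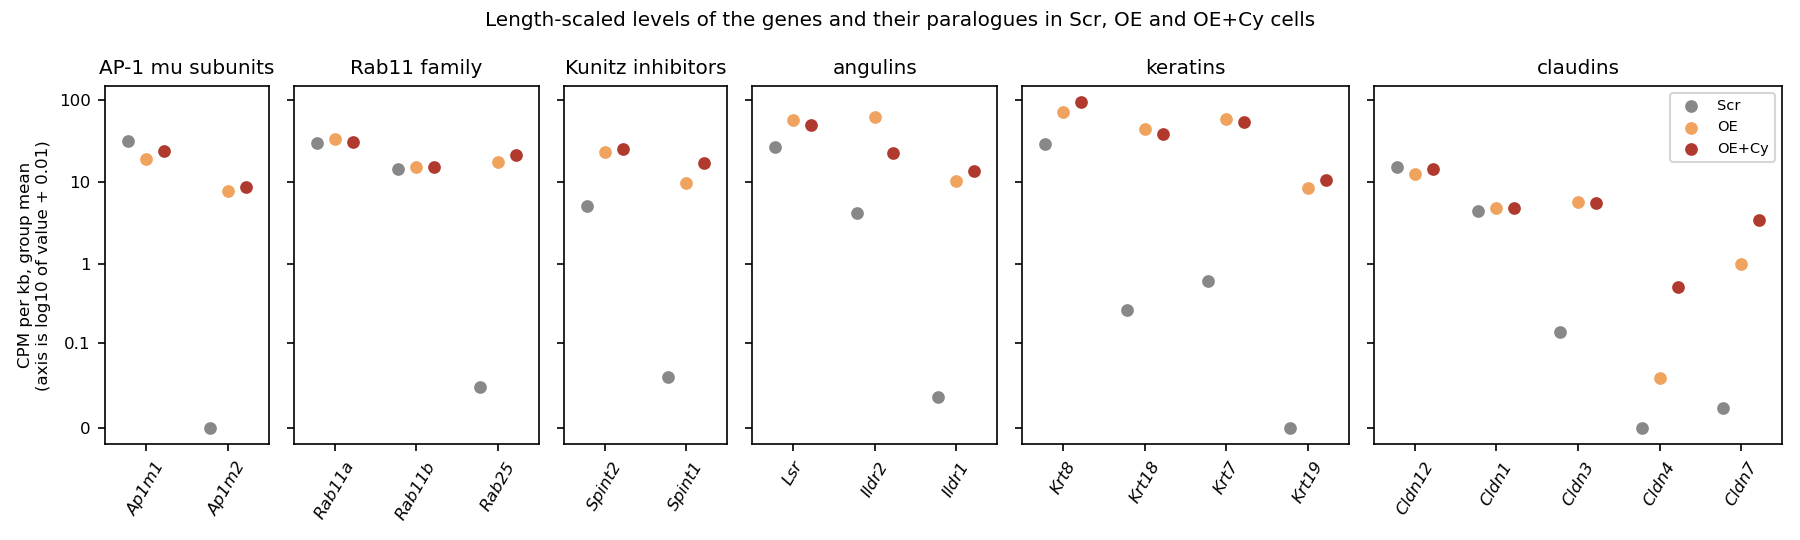
Group means in CPM per kb of exon (y axis, log10 of value + 0.01) of 7 of the 10 genes beside their relatives (x axis) in Scr (grey), OE (orange) and OE+Cy (red). Ap1m1 and Rab11a are on in all groups at 19.3 or more, whereas Ap1m2 and Rab25 are near 0 in Scr and at 7.86 and 17.6 in OE.

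The wider pathways were read from lists of genes, the 10 left out. Of 122 listed genes over all pathway lists, 50 were called higher and 13 lower in OE versus Scr (51.6%), against 25.7% of all genes called and 11.3% called higher. Without the 3 libraries with fibroblast markers 50 were higher and 12 lower. In OE+Cy versus Scr+Cy 56 were higher and 15 lower (55 and 11 without these libraries). These were 58.2% of the listed genes, where 28.5% of all genes were called. In ZIP versus Scr 16 were higher and 21 lower (15 and 21 without these libraries). These were 30.3% of the listed genes, where 14.9% of all genes were called. A share above that of all genes was therefore not particular to OE. In single lists leaving the 3 libraries out moved the OE versus Scr counts of the tight junction list only. Since OE is compared with the same Scr libraries in each list, the counts are not independent.

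Tight junction genes, which seal the sheet, included 11 that were higher and 4 that were lower of 21, and the 4 became 3 without the 3 libraries and 2 at an adjusted p under 0.05. Ocln (occludin) had at most 1 read in any Scr library and stood at 6.75 ± 0.595 CPM in OE (SD, n = 4), at least 76.3-fold higher. Cldn2 rose to 3.42 CPM and Cldn14 to 0.201 CPM, from 2 or fewer reads a library. The largest falls, all of genes under 1 CPM, were those of Cldn19 (log2 fold change -4.69, edgeR adjusted p = 0.0816), Cgnl1 (-2.51) and Cldn23 (-1.45, adjusted p = 0.061). With cytokines in OE cells Cldn2 fell (-2.78, adjusted p = 1.17e-04) while Cldn7 and Cldn4 rose. Polarity complex genes, which set the apical and basolateral domains, were mostly not called, with 3 higher and 1 lower of 14. Crb3 (2.68), Llgl2 (2.05) and Patj (1.80) rose and Pard6g fell by 1.86 on the log2 scale, and 0 of the 14 were called with cytokines in OE by edgeR.

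Adherens junction and desmosome genes had 7 of 15 called higher and 0 lower. Cdh1 (E-cadherin) stood at 5.95 ± 0.581 CPM in Scr, 186 ± 16.4 CPM in OE and 299.7 ± 19.6 CPM in OE+Cy (SD, n = 4), a log2 fold change of 4.96 between OE and Scr and of 0.69 with cytokines (edgeR adjusted p = 2.25e-17 and 1.54e-04). Pkp3, a desmosomal plakophilin, was at least 51.9-fold higher in OE, and Dsp (desmoplakin) rose to 0.118 CPM. Of the keratins 6 of 7 were called higher and 0 lower, although Krt15 had at most 3 reads in any library of both groups. Krt7 rose from 4.38 to 409 CPM (6.53), and Krt18 and Krt80 rose as well. Of 13 membrane serine proteases and their partners 7 were higher and 1 lower. Hpn (hepsin) and Prss22 rose to 0.138 and 0.177 CPM and Tmprss2 to 2.93 CPM, and Met, the receptor for hepatocyte growth factor, fell from 17.4 to 1.07 CPM (-4.01, adjusted p = 9.76e-16) and returned to 7.76 CPM in OE+Cy (2.84).

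Of 18 genes of the AP-1 adaptor and Rab11 recycling 3 were higher and 2 lower. Rab11fip4, an effector of Rab11, rose from 0.925 to 19.2 CPM (log2 fold change 4.38), Ap1g2 (0.77) and Rab11fip1 (0.71) rose less, and Ap1m1 and Rab11fip2 (-0.62) fell. The lists for the EpCAM and TMC families had 5 higher and 1 lower of 9. Cd81, a tetraspanin, fell from 69.3 to 12.3 CPM (-2.50, edgeR adjusted p = 2.92e-13), and Tspan8 rose from 0 reads to 1.12 CPM, at least 12.7-fold higher. Tmc3 (2.46) and Tmc8 (1.62, adjusted p = 0.0575) also rose from under 1 CPM.

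Among regulators of epithelial genes 6 of 14 were higher and 1 lower. Esrp1, a splicing regulator of epithelial transcripts, had at most 1 read in any Scr library and was at 98.0 ± 10.5 CPM in OE (SD, n = 4), at least 1108-fold higher. Esrp2 rose from 0.273 to 4.82 CPM and Foxa1 from 0.335 to 1.91 CPM. Grhl2, a grainyhead factor, was at 0.142 CPM in Scr and 0.114 CPM in OE and was not called, and it reached 0.808 CPM in OE+Cy (2.76, edgeR adjusted p = 0.00106 against OE). Ovol2 fell from 28.3 to 9.09 CPM (-1.64), and its mean was also lower in ZIP, at 16.3 CPM. Of the same 14 regulators 1 was called higher and 5 lower in ZIP versus Scr. Of 11 mesenchymal genes 2 were higher and 3 lower. Zeb1 fell from 63.5 ± 3.38 to 26.6 ± 2.7 CPM (-1.26, adjusted p = 2.33e-13), Zeb2 was at 8.84 and 5.68 CPM (-0.64, adjusted p = 0.140), Twist2 fell from 5.46 to 0.0752 CPM (-6.14) and Fn1 from 2.58 to 0.351 CPM (-2.87), while S100a4 (1.08) and Snai3 (3.15) rose from under 1 CPM. The fibroblast markers also differed between these groups, summing to 0.867 to 19.2 CPM in Scr and 0.773 to 4.11 CPM in OE. Without the 3 libraries with fibroblast markers the mesenchymal list again had 2 genes higher and 3 lower. The part of the fibroblast markers in the Fn1 result itself was not tested.

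**Figure D4:**
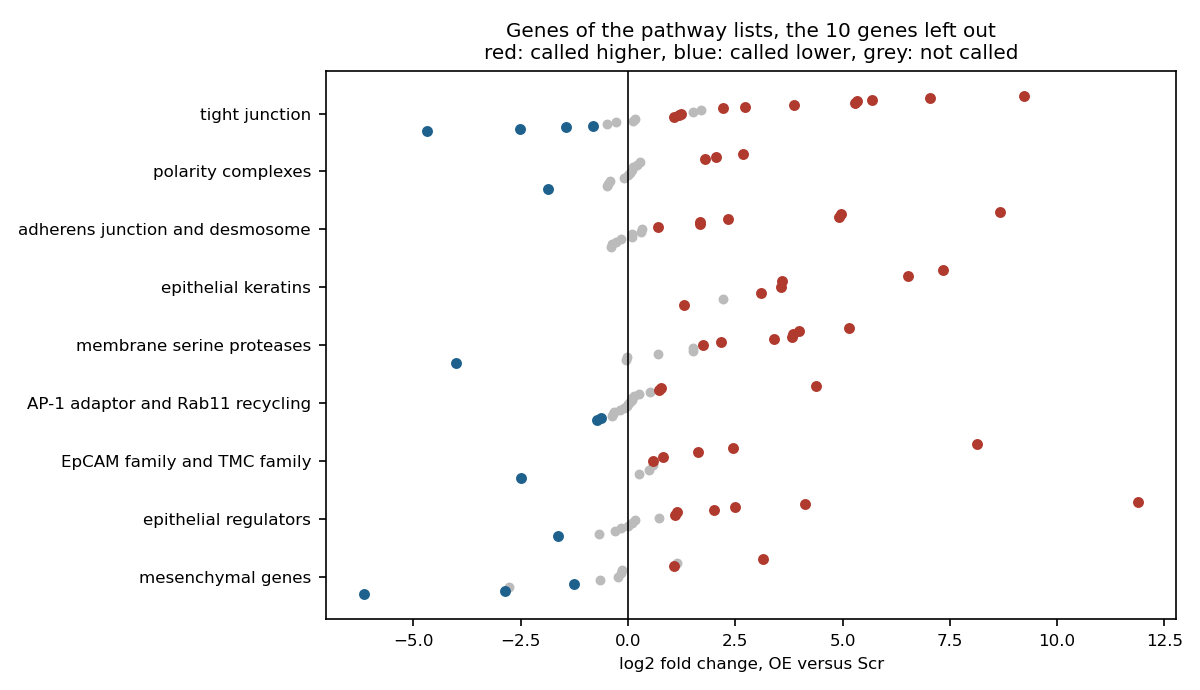
Log2 fold change of OE versus Scr (x axis) of each gene of the 9 pathway lists (y axis, the 10 genes left out), red where called higher, blue where called lower and grey where not called. The keratins hold 6 red points of 7, whereas 10 of 14 polarity genes and 13 of 18 trafficking genes are grey.

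Markers of other pancreatic cells were read beside these results. Of 8 duct markers 5 were called higher and 1 lower in OE versus Scr, and their summed level was 557 to 680 CPM in OE against 259 to 291 CPM in Scr. Krt7 (409 CPM in OE) and Spp1 (91.2 CPM) rose most in CPM, whereas Sox9 had 0 reads in every OE library, Cftr at most 1 read, and Prom1 fell from 267 to 94.7 CPM. Krt7 and Tspan8 also stand in the pathway lists above. Of 12 β cell markers 6 were higher and 2 lower in OE, with Ins1 up from 674 to 7673 CPM and Slc30a8 from 21.9 to 382 CPM, and 8 of the 12 were lower in OE+Cy than in OE. Higher β cell markers were not particular to OE, since 4 of the 12 were called higher and 0 lower in ZIP versus Scr. The 12 summed to 36255 to 39542 CPM in ZIP libraries, against 26107 to 33908 CPM in Scr. The 2 listed acinar markers summed to 91.6 to 126 CPM in OE and 49.8 to 82.8 CPM in Scr. Blood markers summed to at most 4.57 CPM and endothelial markers to at most 1.54 CPM in OE. What part the duct and β cell markers had in the levels of the 10 genes was not tested, and in bulk libraries fewer expressing cells and less RNA per cell cannot be told apart.

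The 10 genes lie on 9 chromosomes, and their nearest listed neighbours on each side were read to see how far the difference between lines extended. Of these 20 neighbours 7 were called higher and 1 lower in OE versus Scr (40.0%, against 25.7% of all genes), and their median log2 fold change was 0.09 against 0.00 for all genes. Some close neighbours did not reach 1.5-fold: Lamtor2 (0.18), 4.67 kb from Rab25, and Elp5 (0.29), 16.5 kb from Cldn7, were among the 12 not called. Cldn3, 39.3 kb from Cldn4, was higher in OE, where Cldn4 itself had at most 5 reads a library. Mex3a, 16.3 kb from Rab25 (1.31, edgeR adjusted p = 5.95e-10), Casr, 132 kb from Ildr1 (2.40, adjusted p = 4.35e-11), and Phlda3, 52.5 kb from Lad1 (1.11, adjusted p = 0.0217), were higher. Tnnt2, Ppp1r14d (adjusted p = 0.0700) and Krt15 were called higher with 0 reads in Scr and at most 5 reads in any OE library, and Gm39302, next to Ap1m2, was called lower on at most 17 reads in Scr and 0 in OE.

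The genes whose profile over the 24 libraries was most like the mean profile of the 10 were ranked by Pearson's r among 12221 genes, as a description, since the points share 6 groups and the profile is set by the OE lines. The first 10 included Smim22 (r = 0.996), Cdh1 (0.992), Baiap3 (0.990), Prr15l (0.990), Esrp1 (0.990), Grp (0.989), Ocln (0.988), F2rl1 (0.988) and Krt8 (0.987), and 382 genes had r above 0.9. By Spearman's rank correlation 0 of the first 10 stood among the 10 highest. F2rl1, a receptor cleaved by serine proteases, went from 2.90 to 30.7 CPM between Scr and OE and to 34.7 CPM in OE+Cy. Smim22 and Grp had 0 reads in Scr and ZIP and means of 2.77 and 1.62 CPM in OE.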

How the data were processed

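Total RNA of 24 cultures of MIN6 lines was made into KAPA mRNA libraries and sequenced. The authors checked reads with FastQC and aligned them with STAR (2.7.8a in the submitters' processing notes) to mm10 within Partek Flow (11.0.24.0204 in the notes), and counted them against RefSeq transcripts. The deposited table holds estimated counts per gene, of which 30.3% were not whole, and every listed gene has at least 10 reads in total. How reads were shared between genes and whether strand was used is not given in the sources used here. The table of normalized counts was not used.

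Estimated counts were rounded to whole numbers and analysed in R 4.3.3 with edgeR 4.0.16 (limma 3.58.1): TMM scaling, all 24 libraries, 6 group means, quasi-likelihood test. Calls needed a 1.5-fold difference or more in either direction together with p under 0.05 before adjustment, the limits the study used. Benjamini-Hochberg adjusted p-values over 17696 genes are given beside, and interactions were called at an adjusted p under 0.05. CPM are after TMM. At most 3 reads in each library of a group was taken as the detection limit. Scripts were tested on simulated data. Standard errors come from the quasi-likelihood fit and SDs from the 4 libraries of a group, so both include the spread between libraries. Floors rest on read counts alone. The labels do not say whether same-numbered cultures were separate experiments, so p-values measure the spread between these libraries.

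The 10 genes, the pathway and marker lists and the motifs were chosen with earlier results of these data known. Named from the lists were the 3 largest called rises and falls in OE versus Scr and relatives and partners of the 10, whatever their values. Some genes that fall under these rules are not reported here. Motif windows came from RefSeq (GRCm38.p6), as did gene positions. Exon lengths came from the GENCODE mouse annotation, with the exons of all transcripts of a gene merged. Alternatives were DESeq2 1.42.0, its size factors in edgeR, a filter on low counts (filterByExpr), only the compared groups, a replicate block, adjusted p-values, leaving out each library in turn and, added after seeing the data, leaving out the 3 libraries with fibroblast markers above 10 CPM. Same-numbered libraries deviated together within each line. The correlations of deviations over 12670 genes were 0.162 to 0.455 for OE+Cy and OE and 0.413 to 0.626 for Scr+Cy and Scr. For ZIP+Cy and ZIP they were 0.261 to 0.397. Same-numbered libraries also deviated together between the ZIP and Scr lines (0.141 to 0.634). Between OE and Scr (-0.129 to 0.295) and between OE+Cy and Scr+Cy (6.31e-04 to 0.165) this did not hold for every pair.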

Additional observations from a re-analysis of the deposited data

Results flagged for a closer look

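In 33 groups of 4 libraries the highest or lowest library was compared with the rest by Dixon's gap ratio, which chance passes in about 1 group of 20, and 3 groups passed. Tmc4 stood at 45.9 CPM in OE replicate 1, against 32.7 to 34.8 CPM in the other OE libraries, which lies below the lowest OE+Cy library at 50.9 CPM. Epcam stood at 0.24 CPM in Scr+Cy replicate 3, on 7 reads, against 0.0601 to 0.0689 CPM in the other Scr+Cy libraries. Tmc4 stood at 0.103 CPM in Scr+Cy replicate 2, on 3 reads, against 0.270 to 0.277 CPM in the others. The last 2 rest on a handful of reads.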

How the results depend on the processing

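The count of the 10 genes called with cytokines in OE, the total over the pathway lists and the promoter counts stayed within 1.5 times their values under every alternative that was run, including the replicate block. Single lists were recounted in OE versus Scr only at an adjusted p under 0.05 and without the 3 libraries, where the falls of the tight junction list, 4, became 2 and 3. The count in Scr, 1 (Ildr1), became 0 with DESeq2, with only the groups compared, with the replicate block, with adjusted p-values and without the 3 libraries with fibroblast markers, and ranged from 0 to 1 when libraries were left out in turn. The block changed no other call of the 10 genes. Estimates on few reads changed sign. For Tmc4 in Scr+Cy versus Scr the value was 0.017 with only the groups compared and 0.185 without the 3 libraries, and it ranged from -0.299 to 0.281 without a library in turn. Over the same fits Spint1 in Scr+Cy versus Scr ranged from -0.0603 to 0.713 and the Epcam interaction from -0.178 to 0.747. The call of Tmc4 in ZIP was lost with only the groups compared, with adjusted p-values and in 6 fits without a library, and that of Cldn4 in OE with DESeq2. At an unadjusted p under 0.05 the interaction was called in 5601 genes instead of 3537. The cause of these changes was not tested. The depth limits what can be said of the 10 genes outside OE, where most had 3 reads or fewer.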
